A study of Mus musculus with 6 samples.

Results

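Skipped exons of 28 to 51 nt were followed in mouse hippocampus with and without knockdown of L-DL. L-DL is the long isoform of hnRNP D-like, an RNA-binding protein encoded by Hnrnpdl, and its knockdown is written L-DL KD. An exon was taken as a member when the splicing table listed it as a skipped exon, spliced in or left out as a whole, with a length from 28 to 51 nt. The rule used only the length and no measured value. It took 2256 of the 29134 skipped exon events, and of 40961 splicing events of all 5 types. An event is 1 exon with 1 pair of neighbouring exons, so the 2256 events covered 1914 distinct exons in 1604 genes.

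The study compared 3 control libraries with 3 L-DL KD libraries, each made from hippocampal RNA that was enriched for poly(A) and sequenced as read pairs of 150 nt. Adeno-associated virus (AAV) was injected into both CA1 areas of C57BL/6 J males, 8 weeks of age. In L-DL KD mice the virus carried shRNAs against the long isoform under H1 promoters, and in control mice a control shRNA, and the L-DL vector also carried zsGreen under a CamkIIα promoter to mark neurons. The control virus was given at a higher titre than the L-DL virus, so titre and knockdown cannot be told apart. The labels name the controls wild type, and the treated mice hnRNP DL KD in one field and hnRNP DL-/- in another. They do not say from how many mice each library came, so p-values measure the spread between libraries. The RNA came from the hippocampus while the virus went into CA1, so the libraries also hold cells of areas that were not injected.

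Gene counts totalled 16052529 to 16995425 per control library and 16525467 to 17913064 per L-DL KD library. Junction counts of the short exon events totalled 298554 to 324025 and 297166 to 338255. Hnrnpdl stood at 176, 184 and 171 CPM (counts scaled to the library total) in the controls and at 217, 150 and 173 CPM in those labelled L-DL KD. These groups overlapped, with a log2 fold change of 0.03 (standard error 0.12, adjusted p = 0.898, edgeR). This count covers every isoform of the gene and does not check the knockdown of the long one. Neuron markers summed to 12840 to 13630 CPM in the controls and 8992 to 9665 CPM in those labelled L-DL KD, with 10 of 13 lower and 2 higher by edgeR's quasi-likelihood test. Microglia markers summed to 1440 to 1799 and 3018 to 3931 CPM, and 12 of 12 were higher. The 7 CA1 pyramidal cell markers found summed to 525 to 616 and 394 to 488 CPM, with 3 lower. Astrocyte markers summed to 7952 to 8093 and 6218 to 7299 CPM (2 of 9 higher, 4 lower), and oligodendrocyte markers to 8191 to 8765 and 6954 to 10280 CPM (1 of 9 higher, 1 lower). Endothelial markers summed to 310 to 333 and 387 to 459 CPM (4 of 8 higher), and dentate granule cell markers to 546 to 620 and 637 to 672 CPM (2 of 8 higher, 3 lower). No marker was at 0. Over all 17621 genes tested, 15.6% were higher and 15.0% lower at an adjusted p under 0.05 by the same test. In whole tissue, fewer cells of a type and less RNA per cell cannot be told apart.

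Most internal exons of vertebrate genes are several times longer than these. Very short exons leave little room for the splicing factors that define an exon from within, and many of them depend on sequences in the neighbouring introns. In neurons a group of such exons, often called microexons at the shortest lengths, is spliced in by neuronal splicing factors, commonly keeps the reading frame and adds a few amino acids to proteins of synapses, membrane traffic and the cytoskeleton.

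The exons clustered at lengths that keep the reading frame. Of the 1914 exons, 999 (52.2%) had a length divisible by 3. The commonest length was 51 nt, with 159 exons, followed by 45 nt with 145 and 48 nt with 138, while only 22 exons had 29 nt and 27 had 32 nt. Just outside the limits stood 111 exons of 27 nt and 92 of 52 nt, against 28 exons of 28 nt at the lower limit. In GENCODE M21, 1912 exons were annotated, 1471 of them fully coding in the transcript chosen, 138 partly coding, 134 in a 5′ UTR, 19 in a 3′ UTR and 150 in a non-coding transcript. The share divisible by 3 was 57.2% among coding exons and 38.4% among partly coding ones. Their median length was 42 nt and their median GC content 48.5%.

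**Figure D1:**
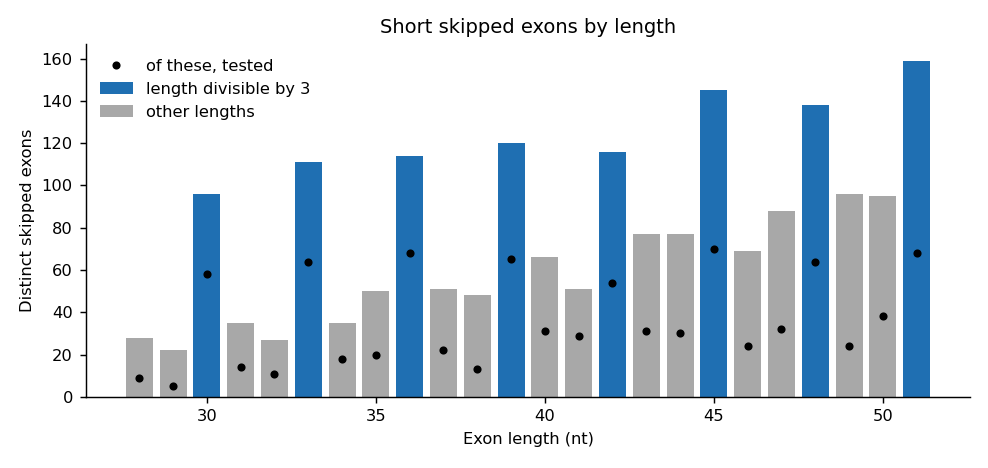
Number of distinct skipped exons (y axis) at each exon length from 28 to 51 nt (x axis). Bars are blue for lengths divisible by 3 and grey for others, and black dots give the exons that passed the count minimum. Blue bars stand above their neighbours, from 96 exons at 30 nt to 159 exons at 51 nt.

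Sequences of the exons that the results below turn on are given here, each read 5′ to 3′ from its GENCODE M21 transcript. All coordinates are on GRCm38. The exon is in capitals, with 20 bases of each neighbouring exon of that transcript in lower case. Shown first are 2 exons whose inclusion fell at an adjusted p under 0.05, followed by 5 with the next smallest p-values or with a place in the list of synaptic and cytoskeletal genes.
Tpd52 exon 5 of Tpd52-203 (chr3:8936439-8936480, minus strand): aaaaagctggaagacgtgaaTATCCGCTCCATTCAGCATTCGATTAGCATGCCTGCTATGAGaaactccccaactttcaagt
Unc13a exon 38 of Unc13a-201 (chr8:71636538-71636567, minus strand): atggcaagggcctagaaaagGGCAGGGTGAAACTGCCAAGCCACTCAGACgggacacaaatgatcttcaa
Sez6 exon 14 of Sez6-202 (chr11:77977245-77977283, plus strand): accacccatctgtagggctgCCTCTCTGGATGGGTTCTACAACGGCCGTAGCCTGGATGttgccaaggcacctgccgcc
Agrn exon 35 of Agrn-203 (chr4:156167777-156167809, minus strand): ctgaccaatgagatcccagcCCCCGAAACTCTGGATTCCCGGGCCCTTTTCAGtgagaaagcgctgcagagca
Asph exon 3 of Asph-217 (chr4:9637659-9637703, minus strand): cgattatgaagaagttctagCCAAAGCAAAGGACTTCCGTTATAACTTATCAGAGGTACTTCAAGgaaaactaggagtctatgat
Clta exon 5 of Clta-203 (chr4:44031400-44031435, plus strand): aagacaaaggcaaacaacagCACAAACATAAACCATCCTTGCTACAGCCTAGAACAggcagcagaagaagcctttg
Epb41l3 exon 14 of Epb41l3-201 (chr17:69273882-69273917, plus strand): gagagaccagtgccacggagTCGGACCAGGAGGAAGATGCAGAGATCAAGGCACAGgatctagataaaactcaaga

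Also shown, for comparison, are 3 exons with higher PSI, all fully coding and with lengths divisible by 3.
Myo18a exon 40 of Myo18a-208 (chr11:77854678-77854722, plus strand): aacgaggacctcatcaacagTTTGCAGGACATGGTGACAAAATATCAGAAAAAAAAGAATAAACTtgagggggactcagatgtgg
Sap30bp exon 3 of Sap30bp-203 (chr11:115938010-115938057, plus strand): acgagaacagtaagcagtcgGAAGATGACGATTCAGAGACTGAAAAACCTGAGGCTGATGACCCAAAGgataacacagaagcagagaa
Ythdf3 exon 4 of Ythdf3-202 (chr3:16203187-16203219, plus strand): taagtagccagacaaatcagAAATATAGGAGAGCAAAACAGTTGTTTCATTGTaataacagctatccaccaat
The 20 bases beside the Unc13a and Agrn exons belong to the transcript named, whose neighbouring exons are not both those of the event counted.

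Inclusion was measured as PSI (percent spliced in), given here from 0 to 1 as the share of transcripts that hold the exon, from junction counts divided by the effective length of each form. Events entered the test with 20 or more junction counts per library on average, provided that both forms averaged 1 count or more. Of the 2256 events, 591 had fewer than 20 counts, 712 had enough counts but under 1 count of a form, and 953 events in 770 genes were tested. Each exon was then represented by its event with the most counts, which gave 862 tested exons with a median of 88 junction counts per library. Of these, 321 had a mean control PSI over 0.9, 404 lay from 0.1 to 0.9 and 137 were under 0.1. Lengths divisible by 3 made up 70.5% of the exons from 0.1 to 0.9, against 46.7% of those over 0.9 and 55.5% of those under 0.1.

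The short exons were more often left out in the libraries labelled L-DL KD. PSI was lower in 528 of the 862 exons (61.3%) and higher in 334, while over all tested events of the 5 types 52.7% were lower. The median PSI of the 862 exons was 0.747, 0.730 and 0.712 in the control libraries and 0.699, 0.666 and 0.684 in the libraries labelled L-DL KD, so that the groups did not overlap. The median difference (L-DL KD minus control) was −0.0114 over these exons, −0.00487 over all tested skipped exon events and −0.00172 over all tested events. For single exons, the median size of the difference in either direction was 0.0403, beside a median SD over 3 libraries of 0.0328 in the controls and 0.0388 in L-DL KD. A difference of at least 0.1 was found in 143 exons downwards and in 63 upwards.

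Event by event, 190 of 953 (19.9%) had a lower PSI in all 3 libraries labelled L-DL KD than in any control, against 10.8% of all 18829 tested events. In 58 (6.09%) the PSI was higher in all 3, against 7.6% of all tested events. In the edgeR quasi-likelihood test of the ratio of inclusion to skipping counts, 151 events were lower and 41 higher at an unadjusted p under 0.05 (15.8% and 4.30%), against 8.3% and 4.96% of all tested events. At an unadjusted p under 0.001, 20 events were lower and 2 (0.210%) higher, against 0.738% and 0.239% of all tested events. After Benjamini-Hochberg adjustment over all 18829 events, 3 were lower (0.315%) and 1 higher (0.105%), against 0.186% and 0.069%. The lower counts exceeded the background under each of these rules, and the higher counts did not, except for the single event with an adjusted p. Neuron markers were lower and microglia markers higher in the same libraries, and their part in these counts was not tested.

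**Figure D2:**
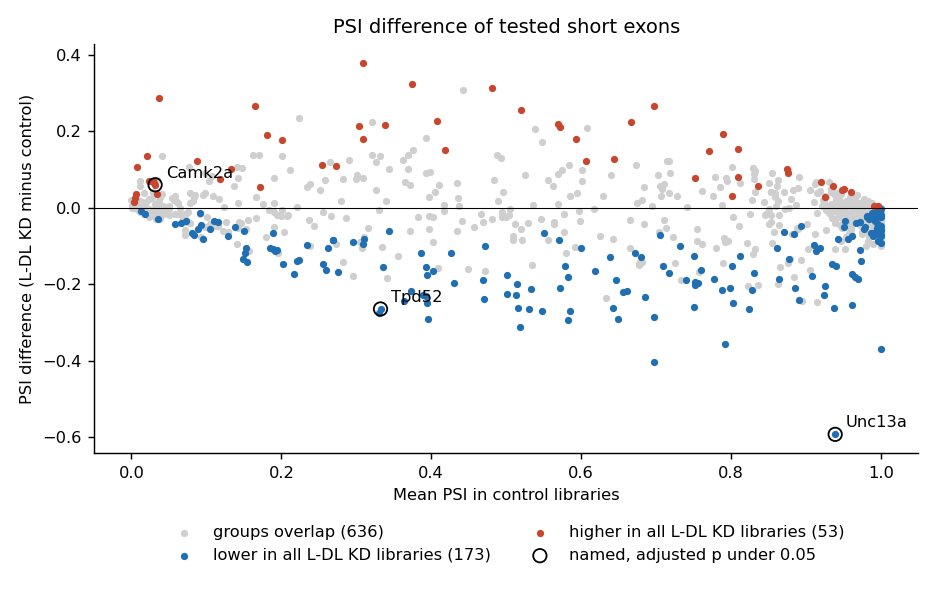
PSI difference (L-DL KD minus control, y axis) against mean control PSI (x axis) for each of the 862 tested short exons. Blue points are lower (173) and red points higher (53) in all 3 libraries labelled L-DL KD, grey points overlap (636) and circles mark the Tpd52, Unc13a and Camk2a exons, each with an adjusted p under 0.05.

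The median shift was larger among exons of intermediate inclusion. From 0.1 to 0.9 in the controls, 106 exons were lower in all 3 libraries labelled L-DL KD and 33 higher, with a median difference of −0.0329. Over 0.9, 55 were lower and 8 higher, where a PSI has little room to rise. Under 0.1, 12 were lower and 12 higher. Among 511 exons divisible by 3, 116 were lower and 32 higher (median difference −0.0154), and among the other 351 exons 57 were lower and 21 higher (median −0.00647). Control PSI also differed between these sets, with medians of 0.607 and 0.881.

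The exon with the smallest p-value was the 42 nt exon of Tpd52, a coiled-coil protein linked to membrane traffic. Its PSI was 0.313, 0.328 and 0.356 in the controls and 0.0761, 0.0681 and 0.0592 in the libraries labelled L-DL KD. Between the groups lay a wide gap, and inclusion counts went from 40, 61 and 48 to 19 in each library while skipping counts rose from 69, 98 and 68 to 181, 204 and 237. The log2 ratio of inclusion to skipping fell by 2.78 (standard error 0.38, adjusted p = 0.0127, edgeR). Tpd52 itself stood at 66.1, 70.1 and 64.9 CPM in the controls and 91.5, 93.8 and 99.2 CPM in the libraries labelled L-DL KD, so the gene count rose while the exon was included less in this event. With other neighbours the exon had 0.985, 1 and 1 against 0.971, 0.905 and 0.962, also lower in all 3 (adjusted p = 0.256, edgeR), but near full inclusion in both groups.

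In Unc13a, which encodes the vesicle priming protein Munc13-1, a 30 nt exon had PSI values of 0.919, 1 and 0.898 in the controls and 0.449, 0.305 and 0.286 in L-DL KD. Skipping was nearly absent from the controls, with 2, 0 and 2 counts, and reached 36, 42 and 46 counts after L-DL KD. Inclusion counts were low in both groups, at 21 to 27 and 22 to 35. The log2 ratio fell by 4.73 (standard error 0.85, adjusted p = 0.0497, edgeR), just inside the threshold.

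The call in the other direction was a 33 nt exon on chromosome 18 in Camk2a, the alpha subunit of calcium/calmodulin-dependent kinase II, in the variable linker of the protein. Its PSI was 0.0314, 0.0303 and 0.0330 in the controls and 0.0855, 0.113 and 0.0773 in L-DL KD. The exon was rare in both groups and rested on 1950 to 3421 junction counts per library, far more than the others. Its log2 ratio rose by 1.62 (standard error 0.24, adjusted p = 0.0185, edgeR), while the gene count fell from 3904 to 4130 CPM in the controls to 2332 to 2444 CPM in L-DL KD.

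These 4 calls depended on the number of libraries and on the tool. For splicing events, library numbers are positions in the splicing table and need not be the numbers of the gene count libraries. Without control library 1, 2 or 3, or L-DL KD library 2, no short exon event passed the adjusted threshold of edgeR, with 152, 157, 173 and 155 events at an unadjusted p under 0.05. Without L-DL KD library 3 only 1 event passed, and without L-DL KD library 1 there were 7. The 22 events at an unadjusted p under 0.001 became 10, 7 and 6 without control library 1, 2 and 3, and 10 and 9 without L-DL KD library 2 and 3. DESeq2 called 11 and limma 0, with 179 events at an unadjusted p under 0.05 by limma at a pseudocount of 0.5 and 206 at a pseudocount of 2.

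Among the 22 events with an unadjusted p under 0.001, 16 had a length divisible by 3, 21 were fully coding, and 10 had a control PSI over 0.9. Some lay in genes of synaptic or membrane proteins, and whether such genes were more frequent than among all events was not tested. Sez6, a neuronal transmembrane protein, went from 0.966, 0.944 and 0.974 to 0.849, 0.736 and 0.777 at its 39 nt exon (adjusted p = 0.0553, edgeR). Agrn encodes agrin, the proteoglycan that organises the postsynapse of the neuromuscular junction. Its 33 nt exon had PSI values of 0.125, 0.118 and 0.220 in the controls and 0.0287, 0 and 0.00868 in L-DL KD, with 6, 0 and 2 inclusion counts left. Counted with other neighbours, the same exon had 0.6002, 0.656 and 0.533 in the controls and 0.548, 0.535 and 0.205 in L-DL KD, with 25, 14 and 5 inclusion counts in the latter. These groups overlapped (adjusted p = 0.606, edgeR), so the gap between the groups held for the first event and not for the second.

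Clathrin light chain A, encoded by Clta, coats endocytic vesicles. Its 36 nt exon had PSI values of 0.363, 0.319 and 0.327 in the controls and 0.205, 0.186 and 0.151 in L-DL KD, on 558 to 1084 counts per library (adjusted p = 0.0667, edgeR). Epb41l3 encodes protein 4.1B, which ties membrane proteins to the spectrin and actin skeleton. The 36 nt exon of Epb41l3 went from 0.514, 0.490 and 0.553 to 0.297, 0.200 and 0.121, and its gene count fell as well (log2 fold change −0.91, standard error 0.10, adjusted p = 0.000647, edgeR). Asph, the locus of aspartate beta-hydroxylase and junctin, had 0.585, 0.594 and 0.569 against 0.350, 0.213 and 0.306 at a 45 nt exon. In the events given for Clta, Epb41l3 and Asph, PSI in L-DL KD lay below every control, as their choice by smallest p required. The Clta exon was also counted with other neighbours, where it had 0.841, 0.850 and 0.884 against 0.843, 0.750 and 0.783 and the groups overlapped.

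Pdlim7, a PDZ and LIM domain protein of the actin cytoskeleton, had 0.950, 0.955 and 0.991 against 0.846, 0.742 and 0.770 at a 37 nt exon (chr13:55507330-55507366), a length that shifts the reading frame. The 30 nt exon of 6430548M08Rik (chr8:120157468-120157497) had 0.940, 0.936 and 0.943 against 0.834, 0.742 and 0.785. For these and the other exons that did not pass the adjusted threshold, the values are only a description. The exons of this paragraph were picked by p-value and are not those with the largest differences.

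The remaining events with a p under 0.001 were named after their values were seen. The P/Q-type calcium channel gene Cacna1a had 0.951, 0.925 and 0.897 against 0.828, 0.659 and 0.603 at a 36 nt exon. The kinase gene Wnk1 had 0.286, 0.255 and 0.240 against 0.0833, 0.0649 and 0.143 at a 42 nt exon. Rbfox1, a neuronal splicing factor, had 0.932, 0.970 and 0.968 against 0.874, 0.879 and 0.872 at a 40 nt exon. Smaller differences were found where controls included the exon almost fully or hardly at all. Calm3 (calmodulin) went from 0.9996, 1 and 1 to 0.996, 0.998 and 0.993, and Ipo4 (an importin) from 1 in each control to 0.938, 0.954 and 0.938. Bcas2, of the spliceosome, went from 0.981, 0.991 and 0.995 to 0.948, 0.888 and 0.911, and Faah, which breaks down anandamide, from 0.994, 0.994 and 1 to 0.852, 0.979 and 0.897. At the low end, Abhd12, a lipase, averaged 0.0182 ± 0.00129 in control and 0.00320 ± 0.00197 in L-DL KD libraries (SD, n = 3 each). In 7 of the 22 events the PSI difference was under 0.1.

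Of the events with higher PSI, those of Camk2a and Bcas1 had an unadjusted p under 0.001. Bcas1, an oligodendrocyte protein, went from 0.0627, 0.104 and 0.0964 to 0.230, 0.224 and 0.179 at a 42 nt exon (chr2:170370450-170370491, adjusted p = 0.0969, edgeR), and its gene count rose too, by 0.67 on the log2 scale (standard error 0.07, adjusted p = 0.000587, edgeR). The next exons had larger p-values. Myo18a, an unconventional myosin, had 0.209, 0.119 and 0.216 against 0.398, 0.348 and 0.373 (adjusted p = 0.140, edgeR). Sap30bp, a nuclear regulator of transcription, had 0.572, 0.579 and 0.563 against 0.845, 0.730 and 0.776 (adjusted p = 0.142, edgeR). Dusp11, a phosphatase that acts on RNA, had 0.588, 0.494 and 0.625 against 0.827, 0.757 and 0.782 at a 47 nt exon (chr6:85950514-85950560). For the Bcas1, Myo18a, Sap30bp and Dusp11 exons, libraries labelled L-DL KD that all lay above every control were a condition of the choice.

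The m6A reader gene Ythdf3 had PSI values of 0.241, 0.105 and 0.150 in the controls and 0.491, 0.319 and 0.484 in L-DL KD. Sytl2, a Rab27 effector, had the largest upward difference of the exons named by rule, from 0.345, 0.324 and 0.260 to 0.584, 0.739 and 0.746 at a 48 nt exon (chr7:90388868-90388915), but on only 22 to 44 counts per library. Lrrfip1 (39 nt, chr1:91082141-91082179) had 0.510, 0.322 and 0.290 against 0.583, 0.705 and 0.804, and Tmem63b (39 nt, chr17:45678963-45679001), which encodes a mechanosensitive channel, 0.305, 0.296 and 0.326 against 0.495, 0.454 and 0.518. Vps39 (33 nt, chr2:120346857-120346889), of the HOPS tethering complex, had 0.0156, 0 and 0.0462 against 0.110, 0.0933 and 0.263, with 1, 0 and 3 inclusion counts in the controls.

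**Figure D3:**
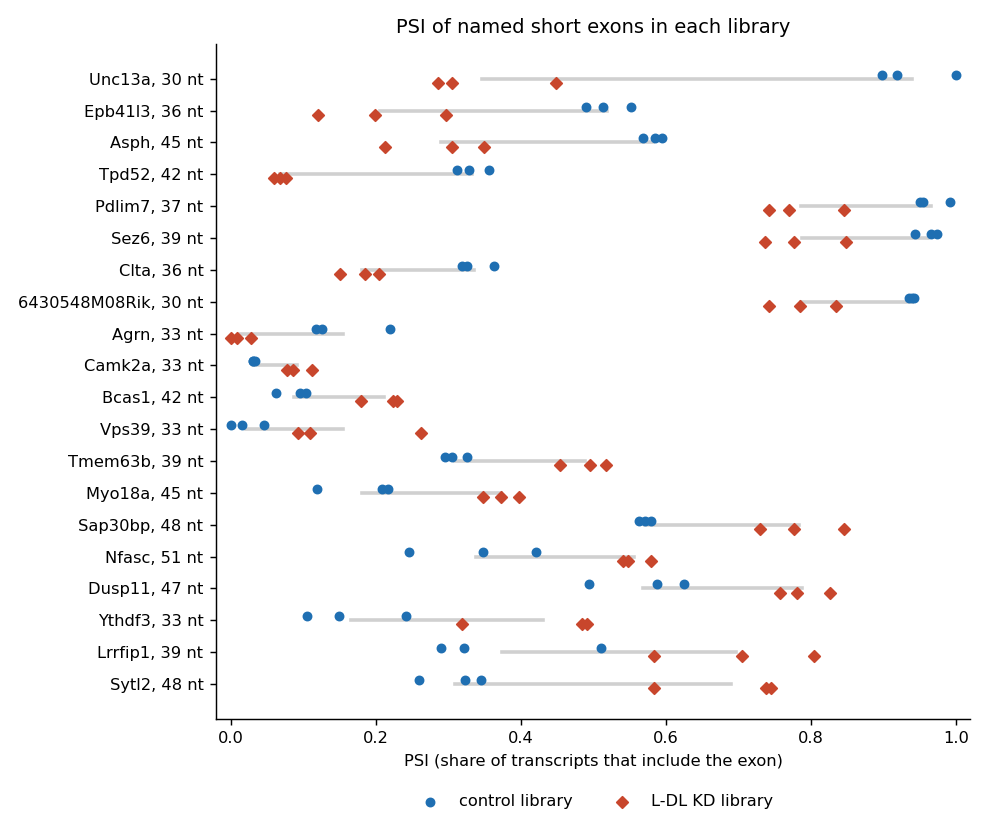
PSI of 20 short exons (x axis, 0 to 1) in each control library (blue circles) and each L-DL KD library (red diamonds). Exons (y axis, with gene and length) are the reported ones among those with an adjusted p under 0.05 or with the smallest p-values in either direction, and grey lines join the group means. Unc13a spans the widest gap, from a mean of 0.939 to 0.347. For every exon but that of Camk2a, groups without overlap and a PSI difference of at least 0.1 were conditions of the choice.

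Genes were grouped into 9 lists by function, and the counts below are of exons with an unadjusted p under 0.05 by edgeR. At this limit all tested events gave 8.3% lower and 4.96% higher, and the tested short exon events 15.8% and 4.30%. In the list of vesicle release, endocytosis and membrane traffic, 11 of 32 tested exons were lower and 0 higher, with a median PSI difference of −0.0485. They included Unc13a, Clta and a 39 nt exon of Synj1, with others named after their values were seen. The 36 nt exon of Epn2, an endocytic adaptor, had 0.377, 0.355 and 0.436 in the controls and 0.220, 0.116 and 0.146 in L-DL KD. The 39 nt exon of Sh3glb1, an endophilin B, had 0.674, 0.848 and 0.855 against 0.418, 0.374 and 0.519. It rested on only 19 to 48 counts per library (adjusted p = 0.234, edgeR). The 28 nt exon of Stx2, a plasma membrane syntaxin, had 0.370, 0.281 and 0.341 against 0.0341, 0.0224 and 0.114. That exon was matched to a non-coding transcript and rested on only 19 to 50 counts (adjusted p = 0.155, edgeR). Dnm1, the dynamin of synaptic vesicle endocytosis, held one of the exons with the most counts in this list (37 nt) and had 0.294, 0.342 and 0.312 against 0.214, 0.295 and 0.282, with overlapping groups. Of the other 3 events of this exon, 1 was lower in all 3 libraries labelled L-DL KD, at 0.503, 0.523 and 0.601 against 0.305, 0.446 and 0.361 (adjusted p = 0.338, edgeR), and the rest overlapped.

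Postsynaptic scaffolds and receptors gave 5 of 19 exons lower and 0 higher, with a median difference of −0.0287. Dlgap2, a scaffold of the postsynaptic density, went from 0.932, 1 and 0.954 to 0.766, 0.685 and 0.673 at a 42 nt exon, and Dlg1, a PSD-95 relative, from 0.407, 0.408 and 0.369 to 0.208, 0.255 and 0.192 at a 36 nt exon. Homer1, which links glutamate receptors to their effectors, went from 0.932, 0.932 and 0.893 to 0.776, 0.842 and 0.822. These 3 were chosen after their values were seen. Dlgap1, named for its many counts, had 0.835, 0.798 and 0.850 against 0.803, 0.842 and 0.899 at its 30 nt exon and did not pass.

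Adhesion genes gave 4 of 32 exons lower and 2 higher, with a median of −0.0239, and 93.8% of these exons had a length divisible by 3. Exons of 1 gene differed in direction here. In Nfasc (neurofascin), a 45 nt exon had 0.485, 0.516 and 0.539 against 0.327, 0.190 and 0.340, while a 51 nt exon (chr1:132627872-132627922) went from 0.246, 0.348 and 0.422 to 0.579, 0.541 and 0.547 (adjusted p = 0.231, edgeR). Both tested exons of Nrcam, another cell adhesion molecule of this family, were lower, from 0.696, 0.636 and 0.726 to 0.492, 0.503 and 0.360 at 36 nt and from 0.747, 0.743 and 0.761 to 0.657, 0.650 and 0.561 at 30 nt. The 45 nt exon of Nfasc and the 36 nt exon of Nrcam were named after their values were seen. The 48 nt exon of Chl1, the close homolog of L1, was higher, at 0.348, 0.292 and 0.272 against 0.483, 0.448 and 0.625. Clstn1 (calsyntenin 1) had 0.495, 0.478 and 0.526 against 0.397, 0.521 and 0.506 at its 30 nt exon, with overlapping groups.

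For actin, spectrin and protein 4.1 genes, 5 of 31 exons were lower and 3 higher (median −0.0338), among them the Pdlim7, Epb41l3 and Myo18a exons given above. Epb41l1, the neuronal protein 4.1N, had 0.945, 0.951 and 0.957 against 0.890, 0.919 and 0.894 at its own 36 nt exon (chr2:156511785-156511820), counted in this list and in the postsynaptic one. It shares 17 of 36 bases with the exon of Epb41l3 when the sequences are set side by side. Of the exons named for their counts, that of Add1 (adducin), 37 nt long, had 0.204, 0.185 and 0.208 against 0.196, 0.190 and 0.149, and Myl6, a myosin light chain, 0.261, 0.338 and 0.381 against 0.428, 0.376 and 0.315. Neither passed.

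Small GTPase regulators gave 5 of 18 exons lower and 0 higher (median −0.0399). The clearest was the 50 nt exon of Iqsec2, an exchange factor for ARF GTPases at excitatory synapses, with 0.849, 0.832 and 0.805 in the controls and 0.642, 0.654 and 0.545 in L-DL KD (adjusted p = 0.0885, edgeR). Its relative Iqsec1 holds an exon of the same length, with 38 of 50 equal bases (76.0%). That exon had 0.825, 0.841 and 0.884 against 0.801, 0.833 and 0.790, so that its groups overlapped. With other neighbours the Iqsec1 exon was near full inclusion, at 1, 0.995 and 1 against 0.977, 0.992 and 0.982, and lower in all 3 libraries labelled L-DL KD (adjusted p = 0.317, edgeR). Both sequences are shown because the exons have the same length in related genes, and the pair was picked after the values were seen. The difference between their changes was not tested.
Iqsec2 exon 14 of Iqsec2-203 (chrX:152222283-152222332, plus strand): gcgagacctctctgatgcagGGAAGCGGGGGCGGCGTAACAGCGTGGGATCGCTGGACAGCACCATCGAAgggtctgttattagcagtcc
Iqsec1 exon 13 of Iqsec1-201 (chr6:90664022-90664071, minus strand): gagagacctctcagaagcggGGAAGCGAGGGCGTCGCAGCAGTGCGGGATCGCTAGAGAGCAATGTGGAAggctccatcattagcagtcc

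Kinases, phosphatases and calcium signalling genes gave 7 of 30 exons lower and 3 higher (median −0.0112). Besides Camk2a and Wnk1, the 43 nt exon of Camkk2, a kinase that activates CaM kinases, had 0.906, 0.920 and 0.847 against 0.731, 0.657 and 0.560, and was named after its values were seen. Camk2a also holds a 43 nt exon with 2265 to 3859 junction counts per library, whose PSI was 1 in each control and 1, 0.9995 and 0.997 in L-DL KD, with 0, 1 and 5 skipping counts. Channels, pumps and transporters gave 5 of 24 lower and 1 higher (median −0.00690). The potassium channel subunit gene Kcnab2 had 2 well-covered exons without a call, at 0.978 to 0.997 over all 6 libraries (42 nt) and at 0.00329 to 0.0138 (45 nt).

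Splicing, RNA-binding and chromatin proteins gave 10 of 43 exons lower and 1 higher (median −0.00956). Mbnl1 (muscleblind), which regulates alternative exons, had 0.874, 0.891 and 0.890 against 0.713, 0.655 and 0.655 at a 36 nt exon, and Srrm1, a nuclear speckle protein, 0.892, 0.821 and 0.878 against 0.734, 0.639 and 0.663 at a 42 nt exon. Both were named after their values were seen, as was Rbfox2, a relative of Rbfox1, with 0.837, 0.938 and 0.852 against 0.561, 0.857 and 0.776 at a 40 nt exon. Exons of 2 hnRNP genes were named for their counts, and both were among the 10 lower exons of this list. Hnrnpk had 0.974, 0.981 and 0.991 against 0.962, 0.973 and 0.951 at 44 nt, and Hnrnpa2b1 0.120, 0.0992 and 0.110 against 0.0744, 0.0824 and 0.0701 at 36 nt.

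Microtubule-associated proteins and motors held no exon past this limit: 0 of 18 were lower and 0 higher at an unadjusted p under 0.05 by edgeR, with a median difference of 0.0241. Klc1, a kinesin light chain, had 0.692, 0.720 and 0.701 against 0.692, 0.673 and 0.559 at 51 nt, and the dynein subunit gene Dync1li2 0.694, 0.795 and 0.695 against 0.769, 0.736 and 0.770 at 42 nt. Genes in no list held 617 tested exons, of which 82 were lower and 27 higher (median −0.00929). Differences between lists were not tested, nor was the part of the marker changes in them.

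**Figure D4:**
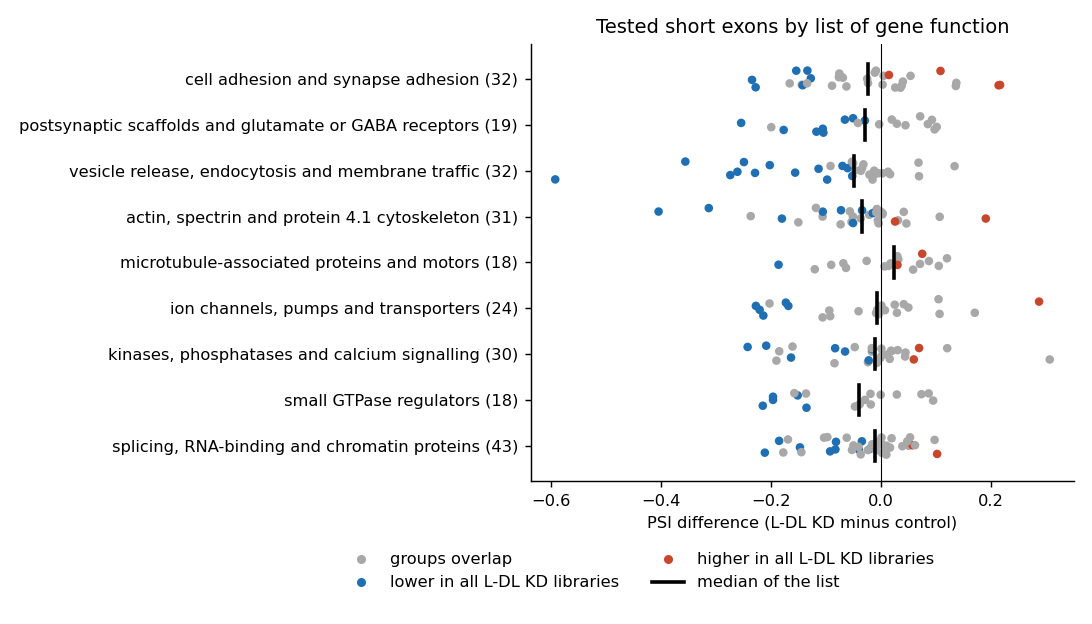
PSI difference (L-DL KD minus control, x axis) of each tested short exon in 9 lists of gene function (y axis, with the number of tested exons). Blue points are lower and red points higher in all 3 libraries labelled L-DL KD, grey points overlap, vertical spread within a list is only for legibility, and black bars are list medians, from −0.0485 for membrane traffic to 0.0241 for microtubule genes.

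A set of 14 genes was made up of Clasp1, which the paper's text does not name, and genes whose splicing that text follows. The paper drew those genes from its splicing analysis of these same libraries and checked them by RT-PCR in hippocampus. Their direction here is therefore not independent evidence, and it did not always match the paper's. For Chl1 the paper gives another exon number than that of the exon counted here. Of the 14 genes, 8 held a short skipped exon, 9 of their 10 exons were tested, 4 were lower in all 3 libraries labelled L-DL KD and 1 was higher. Over all tested events these shares were 10.8% and 7.6%, and over tested short exon events 19.9% and 6.09%. Besides Agrn, Epb41l3 and Chl1, the set included Cadm1, a synaptic adhesion molecule, and Synj1, the phosphatase synaptojanin 1 that uncoats vesicles.
Cadm1 exon 8 of Cadm1-204 (chr9:47829377-47829409, plus strand): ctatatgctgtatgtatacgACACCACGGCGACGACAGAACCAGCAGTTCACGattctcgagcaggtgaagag
Synj1 exon 26 of Synj1-203 (chr16:90949699-90949737, minus strand): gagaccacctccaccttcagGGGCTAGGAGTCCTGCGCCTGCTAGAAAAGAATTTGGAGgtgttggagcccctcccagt
Synj1 exon 27 of Synj1-203 (chr16:90948066-90948113, minus strand): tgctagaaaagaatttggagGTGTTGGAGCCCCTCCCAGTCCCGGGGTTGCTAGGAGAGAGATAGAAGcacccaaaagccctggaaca
Synj1 exon 28 of Synj1-203 (chr16:90947015-90947053, minus strand): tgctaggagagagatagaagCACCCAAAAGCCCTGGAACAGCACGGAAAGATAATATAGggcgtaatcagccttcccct
The Cadm1 exon was counted with 2 different upstream neighbours. With the nearer one it had 0.720, 0.730 and 0.678 in the controls and 0.396, 0.420 and 0.251 in L-DL KD (adjusted p = 0.0834, edgeR), and with the farther one 0.527, 0.334 and 0.317 against 0.286, 0.231 and 0.200 (adjusted p = 0.395, edgeR).

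In Synj1, 3 short exons follow each other, of 39, 48 and 39 nt, all divisible by 3. The first had 0.985, 1 and 0.993 against 0.919, 0.871 and 0.980 (adjusted p = 0.158, edgeR), but with other neighbours 1, 1 and 0.852 against 1, 0.923 and 1, with overlapping groups on 14 to 41 counts. The second had 0.975, 0.975 and 0.986 against 0.976, 0.969 and 0.980, and the third 0.922, 0.982 and 0.953 against 0.958, 0.875 and 0.922, both with overlapping groups. Counted instead against skipping of all 3 exons, the third had 0.539, 0.612 and 0.555 against 0.419, 0.429 and 0.267 (adjusted p = 0.294, edgeR), so its value depended on which neighbours the event joined. The Cask exon (36 nt, chrX:13550947-13550982), in a synaptic scaffold kinase, had 0.971, 0.845 and 0.942 against 0.950, 0.980 and 0.964 on 21 to 60 counts, with overlapping groups. With other neighbours it had 0.751, 0.674 and 0.426 against 0.870, 0.965 and 0.919 on 23 to 37 counts, higher in all 3 libraries labelled L-DL KD (adjusted p = 0.246, edgeR). Clasp1 had 0, 0.0219 and 0.0821 against 0, 0.136 and 0.183, and Git1 had 1 in each control and 1, 1 and 0.947 in L-DL KD, with too few skipping counts for a test.

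Events that shared an exon often, but not always, moved together. Of 66 exons with 2 or more tested events, 43 had the same direction in all of them. The Bcas1 exon was higher with 2 sets of neighbours, in the second from 0.254, 0.280 and 0.240 to 0.480, 0.507 and 0.382, but was near full inclusion in both groups with the other set, at 0.940, 1 and 1 against 0.981, 0.985 and 0.990. In 88 genes with 2 or more tested short exons, which held 191 exons, all were lower in 27 genes, all higher in 12 and both directions occurred in 49.

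By length, the short exons stood between the shortest exons and those of common size. Among skipped exon events of 27 nt or less, 42.3% of 452 tested events were lower in all 3 libraries labelled L-DL KD and 3.10% higher. The figures were 19.9% and 6.09% for 28 to 51 nt, and 11.8% and 6.93% for 8599 events of 52 to 250 nt. At an unadjusted p under 0.001, 8.19% of the shortest class and 0.744% of events of 52 to 250 nt were lower, with 20 of 953 in between, and 0%, 0.210% and 0.221% were higher. The median differences were −0.0753, −0.0119 and −0.00322. Lengths divisible by 3 made up 86.0%, 59.3% and 43.8% of tested exons in these classes, and the median control PSI was 0.692, 0.730 and 0.916. At the limits themselves, 21 of 68 tested exons of 27 nt and 2 of 9 of 28 nt were lower in all 3, and 14 of 68 of 51 nt and 6 of 44 of 52 nt. The difference between classes was not tested, and they differ in control PSI as well as in length.

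**Figure D5:**
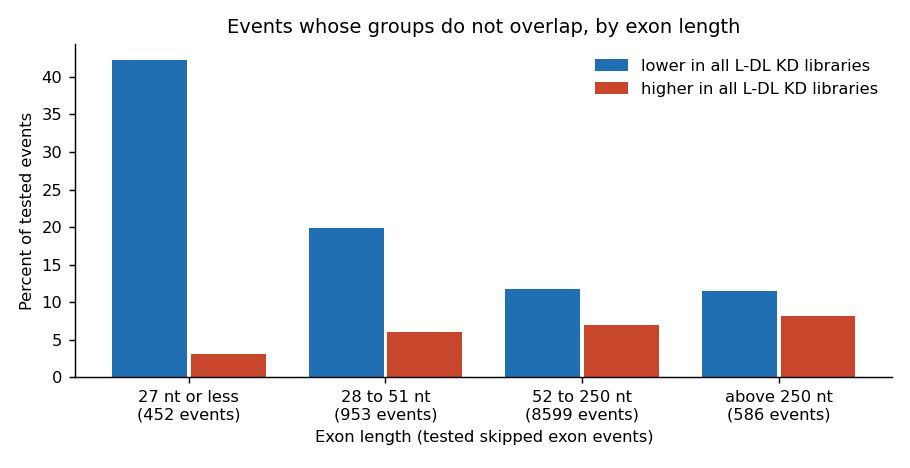
Percent of tested skipped exon events (y axis, from 0) whose PSI was lower (blue) or higher (red) in all 3 libraries labelled L-DL KD than in any control, by exon length (x axis, with the number of tested events). The blue bars step down from 42.3% at 27 nt or less to 19.9% at 28 to 51 nt and 11.8% at 52 to 250 nt.

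Some features of the exons were set side by side, without a test. The 173 exons that were lower in all 3 libraries labelled L-DL KD had a median length of 39 nt and introns of 1389 nt upstream and 1498 nt downstream in the median. The 53 higher exons had 42 nt, 1772 nt and 1818 nt, and the 636 overlapping exons 42 nt, 1612 nt and 1824 nt. The lower exons were fully coding in 84.4% and divisible by 3 in 67.1%, against 76.4% and 57.1% of the overlapping ones, and they had more junction counts (median 118 per library against 79.3). Intron sequences were not analysed here.

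Genes that hold tested short exons were compared by their whole gene counts. Of 765 such genes tested, 202 (26.4%) were lower and 134 (17.5%) higher at an adjusted p under 0.05 by edgeR, against 15.0% and 15.6% of all 17621 genes. The 336 genes became 220 without control library 1. Their median log2 fold change was −0.04, and that of all genes 0.01. The lower neuron and higher microglia markers given above came from the same counts, and their part in this difference was not tested. Exon and gene showed little relation: Spearman's rho between PSI difference and log2 fold change of the gene was 0.00574 over 857 exons, which share libraries and in part genes. Of the 20 exons lower at an unadjusted p under 0.001, 8 lay in genes with lower counts and 6 in genes with higher counts. Besides Tpd52, the Asph, Clta, Pdlim7 and Wnk1 exons were left out more often in genes whose counts rose, by 0.45, 0.32, 0.32 and 0.35 on the log2 scale.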

How the data were processed

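RNA-seq of mouse hippocampus, 3 control and 3 L-DL KD libraries, was used as deposited. The authors deposited raw counts per Ensembl gene without normalization, and the junction count table of rMATS with the inclusion and skipping counts of each library and the effective length of each form. The submitters' processing notes name HISAT2 (2.1.0), HTSeq (0.6.1), Bowtie (1.1.2) and the build mm10, the same assembly as GRCm38. The splicing table also holds the authors' own p-values, FDR and PSI differences, which were not used here, and lists replicates without numbers. Its sample 1 was read as L-DL KD and sample 2 as control, after the paper's definition of the PSI difference. As a check, junction count ratios by gene followed the fold changes of the labelled gene counts (Spearman's rho 0.922 over 6733 genes).

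PSI was recomputed per library. Events were tested with edgeR (4.0.16, R 4.3.3; estimateDisp, glmQLFit, glmQLFTest) on 12 count columns with a term per library, an inclusion term and its change in L-DL KD, and adjusted by Benjamini-Hochberg over 18829 events. Genes reaching 10 counts in 3 or more libraries were tested with edgeR after TMM scaling. Both tests were tested on simulated data. Exons were matched to GENCODE M21 by coordinates, and sequences were read from its transcripts. The members and gene lists were chosen with earlier results of these data known. Exons named by rule were, first, those with an adjusted p under 0.05. Among exons whose groups did not overlap and whose PSI differed by at least 0.1, the 10 fallen and 10 risen with smallest p followed. The rule also took the exons of a set of 14 genes and the 2 exons with the most counts in each list. The 14 genes are Clasp1, which the paper's text does not name, and genes whose splicing that text follows. An exon that meets this rule is not reported here, although the counts include it. Alternatives were DESeq2 (1.42.0), limma (3.58.1), other count minimums, 1 event per exon, PSI without effective lengths, other scalings, a block for the replicate number and omission of each library in turn. Tables and figures were made in Python (3.11.15) with pandas (2.3.3), scipy (1.17.1) and matplotlib (3.10.9).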

Additional observations from a re-analysis of the deposited data

How the results depend on the processing

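The number of short exon events with an adjusted p under 0.05 was 4. It was 11 with DESeq2, 0 with limma at a pseudocount of 0.5 (179 events at an unadjusted p under 0.05) and 0 at a pseudocount of 2 (206 events), and 0 to 7 with 1 library left out. At an unadjusted p under 0.001, the 22 events became 7 with limma at a pseudocount of 0.5, and 6 to 15 with 1 library left out. In each of the alternatives run, more of the events with a p under 0.001 were lower than higher. The median PSI difference of −0.0114 ranged from −0.0116 to −0.00861 with 1 library left out, with −0.00894 without L-DL KD library 2 and −0.00861 without L-DL KD library 3. The 336 changed host genes became 220 to 400 with 1 library left out, with 220 without control library 1. The cause of these changes was not tested, apart from the smaller number of libraries. For the adjusted p of the called exons described above, the alternatives gave 1.56e-05 to 0.107 for Tpd52, 0.00141 to 0.195 for Unc13a and 0.00734 to 0.184 for Camk2a. Of the exons named by rule that had no call, 3 changed sign in the log2 ratio with 1 library left out. Dlgap1 ranged from −0.052 (without L-DL KD library 3) to 0.48, Clstn1 from −0.29 to 0.080 (without L-DL KD library 1), and the 45 nt exon of Kcnab2 from −0.13 to 0.64, with −0.12 without control library 1 and −0.13 without L-DL KD library 3.

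With the replicate number as a block in the fit of gene counts, 293 host genes were changed, 112 higher and 181 lower. Samples with the same number showed only small correlations of their deviations (0.054, 0.127 and −0.107), although for pairs 1 and 2 the same number was the best match. With so few libraries this cannot decide whether the numbers pair them. No paired analysis of the splicing events was possible because their replicates carry no numbers. Depth limits the exons with few junction counts, such as Unc13a, Sytl2 and Cask, and the 1303 untested events.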
